A study of Homo sapiens with 8 samples.

Results

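The peaks described here lie in and around 10 long genes of a 22-gene expression signature of YAP and TAZ activity: MYOF, ASAP1, CRIM1, DOCK5, PTPN14, ARHGEF17, TGFB2, RBMS3, NT5E and CCDC80. Every peak of the deposited table that overlapped one of these RefSeq genes or the 10 kb on either side of it was taken, which gave 178 of 129536 peaks. The genes were picked after the peaks over the bodies of the whole signature had been seen to be more often higher than lower after sorbitol, so every sorbitol value below uses the contrast behind that choice and is given as a description of these genes. The assay was Omni-ATAC-seq: a transposase enters nuclei and inserts adapters where chromatin is open, so that reads pile up into peaks. The cells were HEK293, a human embryonic kidney line. Their genotype field reads eGFP-YAP, a fluorescently tagged YAP, whereas the titles give HEK293 and the library names hold "wt". All were starved of serum for 1 h per the series text. Then 4 libraries were made from vehicle-treated cells and 4 from cells given 0.2 M sorbitol for 1 h, which raises the osmolarity outside the cell. The labels time the vehicle libraries at 0 h and the sorbitol libraries at 1 h, so time and sorbitol cannot be told apart.

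YAP and TAZ are transcriptional co-activators of the Hippo pathway. When the pathway is off they enter the nucleus and work with the DNA-binding TEAD factors, largely at enhancers that lie far from the genes they serve, within introns or between genes. AP-1 factors often share these enhancers. Cell shape, tension and volume are known inputs to YAP.

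Vehicle libraries held 14757015 to 19831471 counts in peaks and sorbitol libraries 11522266 to 14355727. The labels do not say that replicates were separate cultures, so p-values measure the spread between these libraries, which may be technical. Vehicle 4 and sorbitol 4 stood apart: their background index, the median log2 deviation of 477 peaks on unplaced contigs from the mean of all libraries, was 0.34 and -0.30, against -0.29 to -0.07 in the other vehicle and 0.08 to 0.28 in the other sorbitol libraries. Of genes listed as marks of the line, LHX1, NEFL and NEFM had a peak within 1 kb of a gene end, at 5.53 to 29.5 CPM (counts scaled to the library's total), and PAX2 had none. Lymphoid CD3E had none and PTPRC reached 1.16 CPM. Colon CDX2 and VIL1 reached 36.2 and 9.62 CPM, and CDX1 had none.

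The 10 genes span 44.3 kb (CCDC80) to 729.3 kb (RBMS3). LATS2, at 88.6 kb, belongs to the same signature but not to this group. Of the 178 peaks, 158 lay inside a gene and over 1 kb from both of its ends, 10 lay within 1 kb of a gene end, 1 for each gene, and 10 lay in the flanks. The inside peaks were narrow and weak, with a median width of 384 bp and a median of 38.1 counts per library. The gene-end peaks were broader (919 to 2164 bp) and stronger, at a median of 524.8 counts. DOCK5 had no inside peak at all over 231.0 kb, whereas PTPN14 had 13.8 per 100 kb, the highest density of the 10. Another RefSeq gene overlapped 17 of the 178 peaks, so those peaks cannot be assigned to the listed gene alone.

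RefSeq promoter sequences (build GRCh38.p14) matched 6 of the 10 genes, and each of the 6 start sites lay under a gene-end peak. The 250 bases before the start of PTPN14, TGFB2 and RBMS3 are shown because the first 2 hold the TEAD matches of the group and the last, without one, belongs to the gene with the most higher peaks. All are written 5' to 3' on the strand of the gene. PTPN14 is chr1:214551603-214551852 on the minus strand, TGFB2 is chr1:218345086-218345335 and RBMS3 is chr3:29280821-29281070, both on the plus strand. Capitals mark matches to the TEAD core GGAATG, here on the opposite strand.
PTPN14: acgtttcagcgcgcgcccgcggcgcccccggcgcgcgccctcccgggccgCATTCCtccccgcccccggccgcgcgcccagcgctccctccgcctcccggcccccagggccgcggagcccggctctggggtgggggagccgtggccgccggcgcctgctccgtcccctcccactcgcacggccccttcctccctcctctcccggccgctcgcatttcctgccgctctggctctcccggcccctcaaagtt
TGFB2: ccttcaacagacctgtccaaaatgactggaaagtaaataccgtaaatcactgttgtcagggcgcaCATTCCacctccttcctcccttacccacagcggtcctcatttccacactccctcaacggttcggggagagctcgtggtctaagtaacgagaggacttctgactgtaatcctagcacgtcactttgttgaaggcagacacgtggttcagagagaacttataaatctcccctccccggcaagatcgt
RBMS3: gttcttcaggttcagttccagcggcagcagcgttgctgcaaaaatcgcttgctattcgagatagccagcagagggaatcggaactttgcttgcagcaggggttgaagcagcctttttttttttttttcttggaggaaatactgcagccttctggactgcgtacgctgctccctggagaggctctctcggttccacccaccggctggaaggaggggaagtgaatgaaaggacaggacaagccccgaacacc

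The TEAD core was searched on both strands in promoters of 250 bases before to 50 after the start, and so was the AP-1 motif TGANTCA, where N is any base. No member promoter held both, so none overlapped. PTPN14 and TGFB2 each held 1 TEAD match, 200 and 185 bases before the start, and MYOF, RBMS3, NT5E and CCDC80 held none. Of all 35116 promoters in the table, 14.0% held one. The AP-1 motif was in none of the 6 and in 7.71% of all promoters. A match is a run of letters and not a measured binding site. The sequences of the inside peaks were not used here.

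After sorbitol, more peaks were higher than lower inside RBMS3, PTPN14, CRIM1, ASAP1 and MYOF. Most of the higher ones lay in the first 3 of these. Other peaks inside protein-coding genes were also more often higher (18.6%) than lower (9.72%). In ASAP1 and MYOF 12.5% and 10.5% were higher, against 22.5% and 19.2% of peaks of like strength in other genes of like length. TGFB2, NT5E and CCDC80 had no called inside peak, ARHGEF17 had 1 in each direction and DOCK5 had no inside peak. Of the 10 gene-end peaks, 1 was higher. Each peak was tested with the edgeR quasi-likelihood test across all 129487 tested peaks with Benjamini-Hochberg adjustment, and a peak with an adjusted p under 0.05 is called higher or lower. All 178 peaks passed the filter on low counts. Of these, 59 were higher, 7 lower and 112 not called, with a median log2 fold change of 0.26. Among all tested peaks 29.1% were called, 16.0% higher and 13.1% lower, with a median of 0.01. Since the genes were chosen with this contrast known, nothing about the list is tested by these counts. Log2 fold changes are relative to TMM library factors. CPM values are scaled to the library total alone, a scale on which the median over all peaks was 0.09, so ratios of CPM lie slightly above the fitted changes.

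Of the 158 inside peaks, 56 were higher, 1 was lower and 101 were not called, and their median log2 fold change was 0.33. At least 2-fold higher were 18 and none was 2-fold lower, and 121 had a log2 fold change above 0. Other tested peaks inside protein-coding genes were called higher in 18.6% and lower in 9.72% of cases, with 28.4% called in all. At least 2-fold higher were 6.72% and 2-fold lower 0.817% (5.27% and 0.881% of all tested peaks), and their median was 0.06. Vehicle and sorbitol did not overlap at 58 of the 158 inside peaks, with sorbitol above at 57 of them. This separation, in either direction, was found at 26.6% of other peaks inside genes and 26.8% of all peaks. With vehicle 4 and sorbitol 4 left out, 47 inside peaks were higher, of which 45 were among the 56.

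Gene-end peaks showed no such excess of gains with these TMM factors. Of the 10, 1 was higher (NT5E), 4 were lower (MYOF, DOCK5, TGFB2 and ARHGEF17) and 5 were not called, with log2 fold changes from -0.34 to 0.27 and a median of -0.16. Over all tested peaks within 1 kb of a RefSeq gene end, 41.6% were called, 8.75% as higher and 32.8% as lower, and the median was -0.17. None of the 10 changed 2-fold, as did 1.67% (higher) and 1.32% (lower) of those peaks. The groups were separate at ARHGEF17, and at 35.6% of all gene-end peaks. In the flanks, 2 of 10 peaks were higher (ASAP1, RBMS3) and 2 lower (ARHGEF17, CCDC80).

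**Figure D1:**
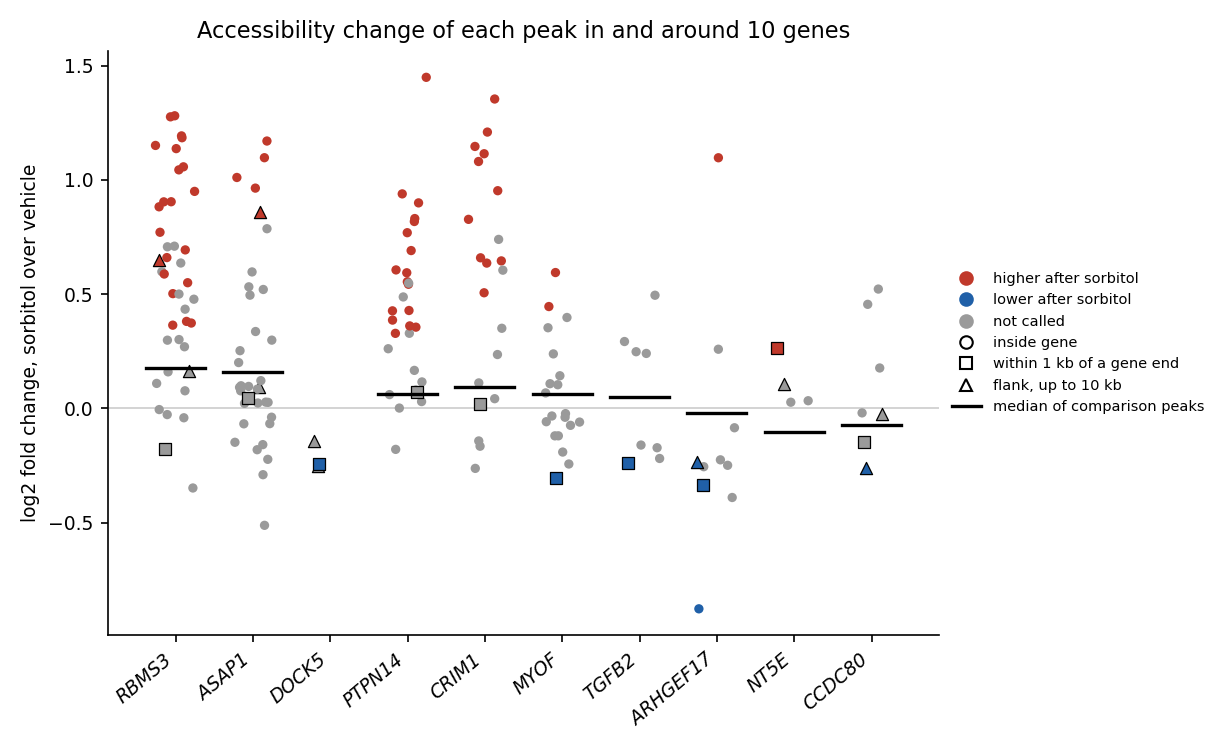
Each point is 1 of the 178 peaks, with genes ordered from longest to shortest on the x axis and the fitted log2 fold change, sorbitol over vehicle, on the y axis. Colour gives the call, the symbol gives the place in the gene, and the black line is the median of comparison peaks inside other genes of like length and strength. Inside peaks of RBMS3, PTPN14 and CRIM1 lie mostly above that line, with medians of 0.59, 0.43 and 0.64, while the gene-end peaks lie between -0.34 and 0.27.

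Among other peaks inside genes, weak ones were more often higher than strong ones, so inside peaks were set beside others like them. For each gene, the comparison peaks lay over 1 kb inside other protein-coding genes of 0.5 to 2 times its length and in the same decile of mean strength, and their shares were weighted to the make-up of its own peaks. Inside peaks of the 10 genes were higher in 35.4% of cases and the weighted comparison peaks in 20.7%, a difference of 14.7 percentage points. They were lower in 0.633% against 7.54%. No test is given for this difference, because the genes were chosen on this contrast. It was 11.5 points without vehicle 4 and sorbitol 4, and 8.63 points without PTPN14. With scaling factors taken from peaks on contigs it was 5.01 points, with 23 inside peaks higher (14.6%, against 9.55% of comparison peaks). Among peaks averaging 50 counts or more, with factors from those peaks alone, it was 23.8 points (49.2% against 25.4%).

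The higher peaks lay mostly in 3 genes. RBMS3, PTPN14 and CRIM1 held 49 of the 56 higher inside peaks, at 49 of their 86 peaks (57.0%), where comparison peaks gave 22.1%. In the other 7 genes, 7 of 72 inside peaks were higher (9.72%), below the 19.1% of their comparison peaks. These 3 genes were singled out after their values were seen.

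By strength, the difference was widest among the strongest peaks. Inside peaks were split into 4 bands of mean CPM. In the strongest band, 6.31 to 51.16 CPM, 20 of 40 were higher and none lower, whereas other peaks inside protein-coding genes in that range reached 16.0% higher and 23.8% lower. Of these 20 peaks, 9 lay in PTPN14, 6 in RBMS3, 3 in CRIM1 and 2 in MYOF. In the weakest band, 1.05 to 1.95 CPM, 14 of 40 were higher (35.0%), against 25.4% of other peaks.

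**Figure D2:**
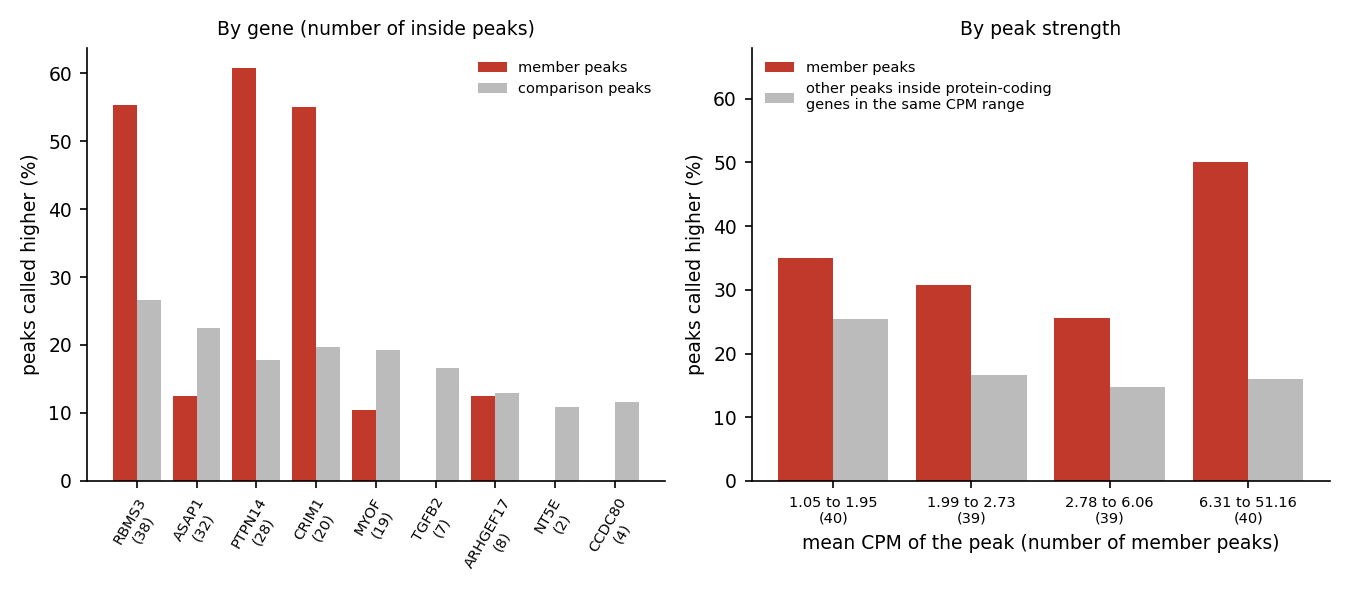
Bars start at 0 and give the percentage of inside peaks called higher, by gene on the left and by band of mean CPM on the right, with the number of member peaks in brackets. Red bars are member peaks and grey bars the comparison, weighted by length and strength on the left and limited to the same CPM range on the right. PTPN14, RBMS3 and CRIM1 reach 60.7%, 55.3% and 55.0%, against 17.8%, 26.6% and 19.7% for their comparison peaks.

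TGFB2 and CRIM1 act in signalling by the TGF-beta family. TGFB2 is a secreted ligand, and CRIM1 is a cysteine-rich transmembrane protein that binds bone morphogenetic proteins. TGFB2, on chromosome 1, had 8 peaks, of which none was higher. Its start peak (218344862 to 218346325) held 35.3, 39.5, 43.6 and 39.0 CPM in vehicle 1 to 4 and 31.7, 35.4, 35.3 and 38.7 CPM in sorbitol 1 to 4. The groups overlapped, with a log2 fold change of -0.24 (SE 0.09, edgeR adjusted p = 0.0313). The inside peak with the smallest p (218421634 to 218422070) had 1.83 ± 0.168 CPM in vehicle and 2.78 ± 0.748 CPM in sorbitol (SD, n = 4), a log2 fold change of 0.50 that was not called (edgeR adjusted p = 0.118).

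CRIM1, on chromosome 2, gained at 11 of its 20 inside peaks, and 5 of them were higher by at least 2-fold. The smallest p belonged to a peak at 36403593 to 36404303, 48.2 kb from the end of the gene with the lower coordinate. It held 7.23, 6.38, 5.55 and 5.22 CPM in vehicle and 13.5, 10.6, 12.5 and 9.47 CPM in sorbitol. Every sorbitol library was above every vehicle library, and the log2 fold change was 0.83 (SE 0.14, edgeR adjusted p = 6.4e-06). At 130 kb to the far end of the gene, 3 of 4 peaks were higher, and these lay close together. One of the 3 (36489179 to 36489729) rose from 2.41 ± 0.504 to 5.57 ± 0.499 CPM (SD, n = 4), and its neighbours on either side rose by 1.15 and 1.08 on the log2 scale. The remaining peaks changed at least 2-fold lay at 54.2 and 75.0 kb, with log2 fold changes of 1.21 and 1.35. The last of these is very weak, at 13.6 counts per library on average.

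With the TMM factors used here, the CRIM1 gene-end peak (36355184 to 36357111) did not follow the body, though other scalings given below called it higher. It held 39.28, 41.91, 45.18 and 42.35 CPM in vehicle and 43.13, 48.66, 42.05 and 46.95 CPM in sorbitol, groups that overlapped, with a log2 fold change of 0.02 (SE 0.08). A strong inside peak only 2.14 kb from that end (36357485 to 36358360), named after its value was seen, was likewise not called, at -0.17. This gene-end peak also overlaps the divergent transcript CRIM1-DT.

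PTPN14 is a tyrosine phosphatase that binds YAP and restrains it, and is itself a target of YAP. On chromosome 1, 17 of its 28 inside peaks were higher and none lower, and 27 had a log2 fold change above 0. Only 1 was higher by at least 2-fold, so the gene showed many moderate changes, from 0.33 to 1.45 among the called peaks. The smallest p was at 214520427 to 214520975, 30.9 kb from the start, with 14.1, 18.0, 17.1 and 17.3 CPM in vehicle and 23.6, 24.2, 26.8 and 28.7 CPM in sorbitol. The groups did not overlap (log2 fold change 0.55, SE 0.10, edgeR adjusted p = 2.04e-05). The change of 1.45 (SE 0.28, edgeR adjusted p = 6.37e-05) was at a weak peak 146 kb from the start (214405006 to 214405330), which went from 0.967 ± 0.156 to 2.76 ± 0.692 CPM (SD, n = 4).

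Strong peaks took part as well. The strongest inside peak of PTPN14 (214513838 to 214515117), named after its values were seen, rose from 44.0 to 58.5 CPM on average, with a log2 fold change of 0.33 (SE 0.08). From 214491577 to 214537742, a stretch of 46.2 kb, 9 inside peaks in a row were called higher. This longest run of the gene was singled out after the values were seen. Runs in genes outside the list were not compared. The start peak (214550777 to 214552560), which covers the promoter printed above, was the strongest of all 178 peaks at 993.6 counts per library. It held 60.04, 61.97, 73.92 and 61.39 CPM in vehicle and 73.25, 72.07, 69.45 and 72.1 CPM in sorbitol, a log2 fold change of 0.07 (SE 0.08) that was not called. Sorbitol libraries lay above 3 of the vehicle libraries there, and vehicle 3 lay above them all.

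RBMS3 encodes an RNA-binding protein and is the longest of the 10 genes. On chromosome 3, 21 of its 38 inside peaks were higher and none lower, 8 of them by at least 2-fold. The smallest p of all 178 peaks was at 29430400 to 29431067, 150 kb from the start. It held 6.31, 8.51, 6.56 and 8.27 CPM in vehicle and 15.9, 16.8, 16.9 and 19.2 CPM in sorbitol, a log2 fold change of 1.14 (SE 0.12, edgeR adjusted p = 2.19e-10). The lowest sorbitol library was well above the highest vehicle library. Higher peaks were found along the entire body, at 9 of 15 inside peaks up to 243 kb from the start, 6 of 13 from there to 486 kb and 6 of 10 beyond. At 319 and 524 kb from the start, weak peaks went from 1.42 ± 0.209 to 3.35 ± 0.342 CPM and from 1.42 ± 0.407 to 3.61 ± 0.665 CPM (SD, n = 4).

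The start peak of RBMS3 (29280572 to 29281923) moved the other way without being called. It held 34.7, 37.2, 40.2 and 39.4 CPM in vehicle and 35.9, 34.9, 33.4 and 37.4 CPM in sorbitol, with a log2 fold change of -0.18 (SE 0.08, edgeR adjusted p = 0.102). It was called lower without sorbitol 4, at -0.23 (edgeR adjusted p = 0.042). The antisense gene RBMS3-AS3 overlaps this peak. A flank peak 1.64 kb before the start was higher, at 0.65.

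**Figure D3:**
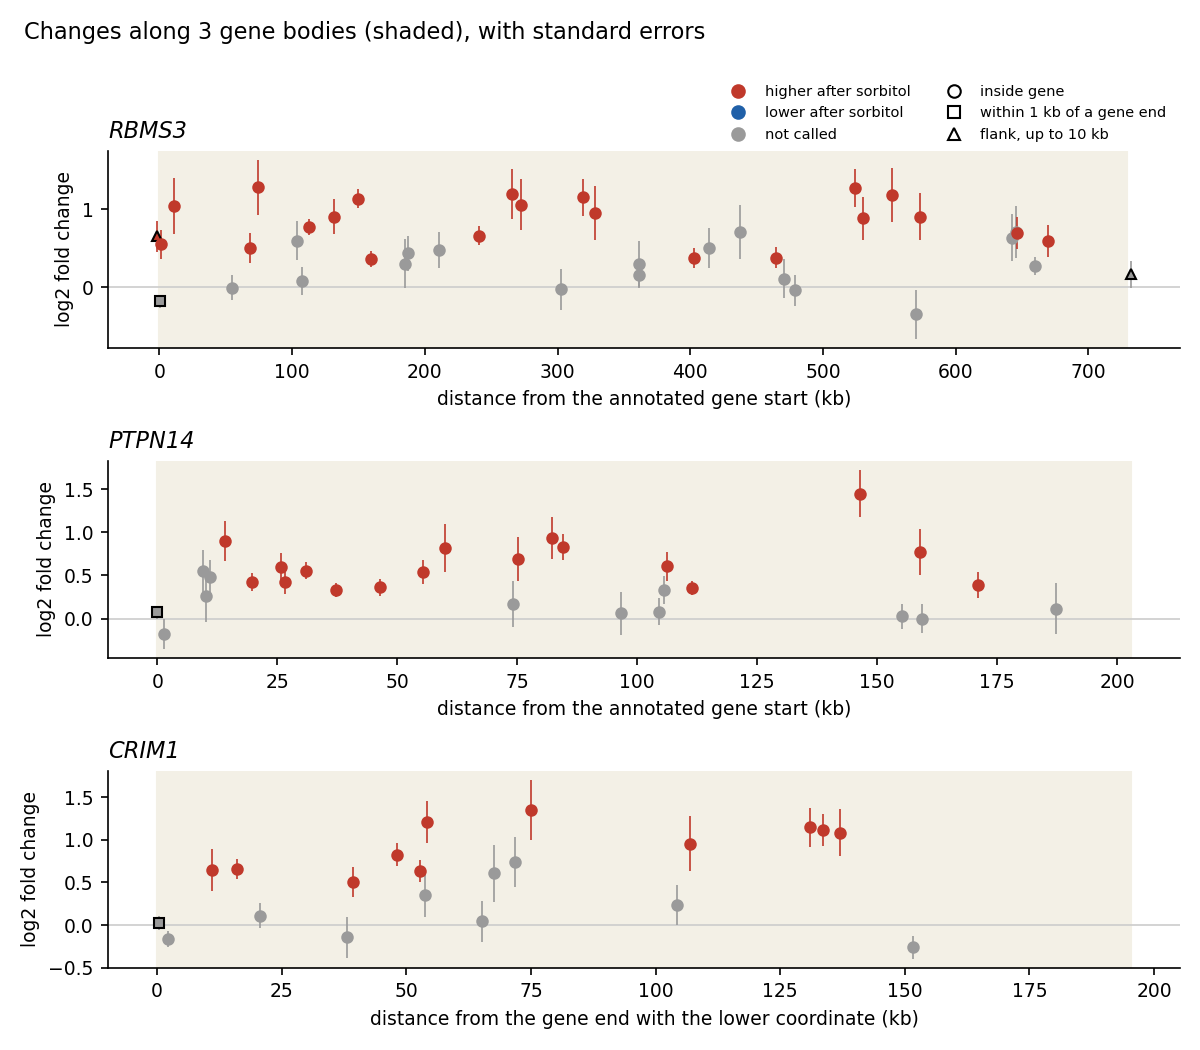
Each point is a peak, placed on the x axis by its distance in kb from the annotated start of RBMS3 and PTPN14, or from the lower-coordinate end of CRIM1, and on the y axis by its log2 fold change with its standard error. The gene body is shaded, colour gives the call and the symbol gives the place. Higher peaks are spread along each body, and the longest run in PTPN14, singled out after the values were seen, holds 9. The square at 0 kb, the gene-end peak, lies at 0.07 in PTPN14, 0.02 in CRIM1 and -0.18 in RBMS3.

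**Figure D4:**
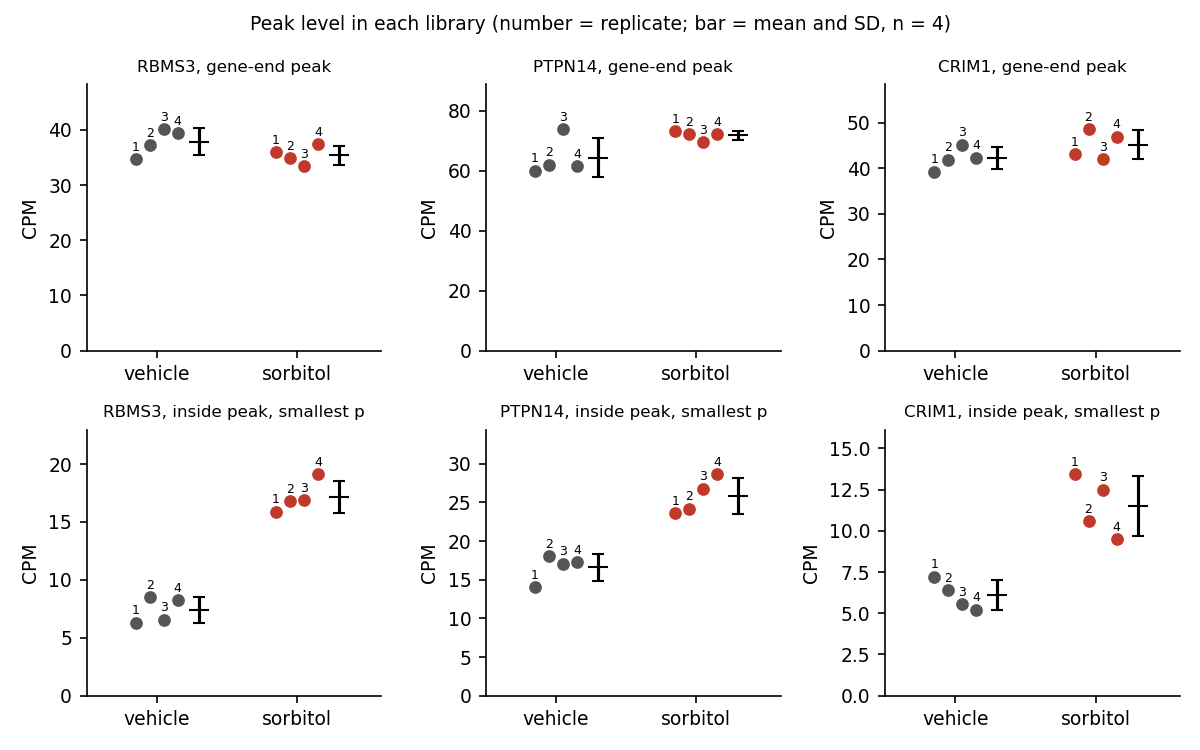
Points are CPM in single libraries, numbered by replicate, with mean and SD (n = 4) beside them, for the gene-end peak (top row) and the inside peak with the smallest p (bottom row) of RBMS3, PTPN14 and CRIM1. All y axes start at 0. The groups overlap in the top row and are separate in the bottom row, for example 6.31 to 8.51 against 15.9 to 19.2 CPM in RBMS3.

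Regulators of small GTPases made up 3 of the 10 genes: ASAP1, which switches off Arf, DOCK5, which activates Rac, and ARHGEF17, a guanine nucleotide exchange factor. ASAP1, on chromosome 8 and 391.6 kb long, had 32 inside peaks, of which 4 were higher (12.5%, against 22.5% of comparison peaks). The 4 had log2 fold changes of 0.96 to 1.17 and were all weak. That with the smallest p (130097077 to 130097599) held 2.50, 1.49, 2.12 and 2.30 CPM in vehicle and 4.51, 4.38, 3.81 and 5.09 CPM in sorbitol, without overlap (1.01, SE 0.21, edgeR adjusted p = 0.000167). The next inside peak of the gene (130106671 to 130106876) rose by 1.17 on the log2 scale. The strong peaks of ASAP1 were not among those called. Its gene-end peak had 31.3 ± 1.54 CPM in vehicle and 34.1 ± 3.28 CPM in sorbitol (SD, n = 4), and its strongest inside peak, which overlaps LOC124902026, had 33.0 and 33.9 CPM on average.

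DOCK5, also on chromosome 8, had 3 peaks, the fewest of the 10 genes, and none in its interior. The gene-end peak (25183605 to 25185768) had 30.6 ± 1.70 CPM in vehicle and 27.3 ± 2.88 CPM in sorbitol (SD, n = 4), overlapping groups with a log2 fold change of -0.24 (SE 0.09, edgeR adjusted p = 0.0348). Neither flank peak was called.

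ARHGEF17, on chromosome 11, had 3 lower and 1 higher of 10 peaks. Its gene-end peak (73307209 to 73308635), shared with the antisense gene ARHGEF17-AS1, held 53.4, 48.3, 42.8 and 41.1 CPM in vehicle and 40.5, 39.1, 38.8 and 37.4 CPM in sorbitol. Every vehicle library was above every sorbitol library, though vehicle 4 only narrowly (log2 fold change -0.34, SE 0.09, edgeR adjusted p = 0.00229). The single lower inside peak of all 158 (73330603 to 73330936, 22.5 kb into the gene) fell from 3.65 ± 0.550 to 2.07 ± 0.342 CPM (SD, n = 4), and lies within 1 kb of an end of LOC124902710. A weak peak 54.0 kb into the gene rose by 1.10 on the log2 scale. The remaining lower peak (73375948 to 73377386) lay in the flank, with overlapping groups (log2 fold change -0.24, edgeR adjusted p = 0.0421). It overlaps the gene RELT and lies within 1 kb of its end, so it cannot be assigned to ARHGEF17 alone.

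MYOF, NT5E and CCDC80 act at the cell surface or in the matrix. MYOF, a ferlin of the plasma membrane on chromosome 10, had 2 higher of 19 inside peaks (10.5%, against 19.2% of comparison peaks). That with the smaller p (93445485 to 93446070) held 5.98, 4.08, 5.85 and 5.56 CPM in vehicle and 9.81, 8.04, 9.88 and 6.76 CPM in sorbitol, without overlap (0.59, SE 0.15, edgeR adjusted p = 0.00196). Its start peak (93481971 to 93482889) had 14.2 ± 1.57 and 12.1 ± 2.02 CPM (SD, n = 4), overlapping groups called lower at -0.31 (edgeR adjusted p = 0.0423).

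NT5E, the surface enzyme CD73 that forms adenosine, on chromosome 6, had the only higher gene-end peak. Its start peak (85449750 to 85450770) held 20.4, 19.3, 21.7 and 22.6 CPM in vehicle and 28.0, 22.5, 26.4 and 29.5 CPM in sorbitol, where only sorbitol 2 fell within the vehicle range (log2 fold change 0.27, SE 0.09, edgeR adjusted p = 0.0267). Its other 3 peaks were not called. CCDC80, a secreted matrix protein on chromosome 3, had no called peak in its body. Its start peak had 35.4 ± 2.25 CPM in vehicle and 33.9 ± 3.05 CPM in sorbitol (SD, n = 4), and a flank peak (112642852 to 112643326) was called lower at -0.26 (SE 0.10, edgeR adjusted p = 0.0419) with overlapping groups.

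Of the 5 calls at gene ends, that at ARHGEF17 held without each library in turn (edgeR adjusted p = 0.000241 to 0.0339). The other 4, and the call in the CCDC80 flank, were lost without some single libraries. The lower call at MYOF was lost without any 1 of vehicle 2, 3 or 4 or sorbitol 1, 2 or 3 (edgeR adjusted p = 0.0517 to 0.131). That at DOCK5 was lost without vehicle 2, 3 or 4 or sorbitol 1 or 2 (0.0567 to 0.12), and that at TGFB2 without vehicle 2 or 3 or sorbitol 1, 2 or 3 (0.0591 to 0.147). The CCDC80 flank call was lost without vehicle 2 or 3 or sorbitol 2 or 3 (0.0795 to 0.189). The higher call at NT5E was lost without vehicle 1 or 2 or sorbitol 1 or 4 (0.0668 to 0.144). With factors from gene-end peaks, none of the 4 lower gene-end calls remained (0.115 to 0.562), whereas NT5E was still higher. The gene-end peaks of PTPN14, ASAP1 and CRIM1, not called before, were then called higher. Their log2 fold changes were 0.25, 0.22 and 0.19 (edgeR adjusted p = 0.00435, 0.0255 and 0.0321). A loess offset for peak strength also gave higher calls at these 3, at 0.28, 0.21 and 0.20 (edgeR adjusted p = 0.00164, 0.0344 and 0.0268). With factors from contig peaks, the inside peaks of smallest p in PTPN14 and MYOF were not called (0.141 and 0.151). Their log2 fold changes were then 0.51 (SE 0.24) and 0.53 (SE 0.25), against 0.55 (SE 0.10) and 0.59 (SE 0.15). The PTPN14 peak at 214405006 to 214405330 was still higher, at 1.43.

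Summed over inside peaks, all sorbitol libraries exceeded all vehicle libraries in 5 of 9 genes: RBMS3, PTPN14, CRIM1, ASAP1 and MYOF. The same held for 26.4% of 7512 other protein-coding genes with at least 2 inside peaks. Those genes were not matched for length or number of inside peaks, so the shares are not like for like. The 5 genes summed 19 to 38 inside peaks each, and the rest of the 9 summed 2 to 8. RBMS3 went from 128.0 ± 4.98 to 196.1 ± 6.81 summed CPM, PTPN14 from 198.3 ± 14.1 to 276.1 ± 5.83 and CRIM1 from 82.01 ± 3.65 to 112.4 ± 3.71 (SD, n = 4). ASAP1 went from 127.6 ± 3.18 to 147.7 ± 7.10 and MYOF from 101.7 ± 5.36 to 112.7 ± 4.33. The groups overlapped in TGFB2, ARHGEF17, NT5E and CCDC80. These sums are scaled by library totals and are not tested. With TMM factors, a scaling added after seeing the data, 4 genes remained separate in this direction (19.0% of the other genes), with log2 ratios of 0.53 (RBMS3), 0.40 (PTPN14), 0.37 (CRIM1) and 0.13 (ASAP1). MYOF then overlapped, at 0.06 against 0.15 by library totals. In ARHGEF17, at -0.19, all sorbitol libraries lay below all vehicle libraries, but only narrowly (highest sorbitol 28.45, lowest vehicle 28.53). The share of other genes separated downward was not counted.

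**Figure D5:**
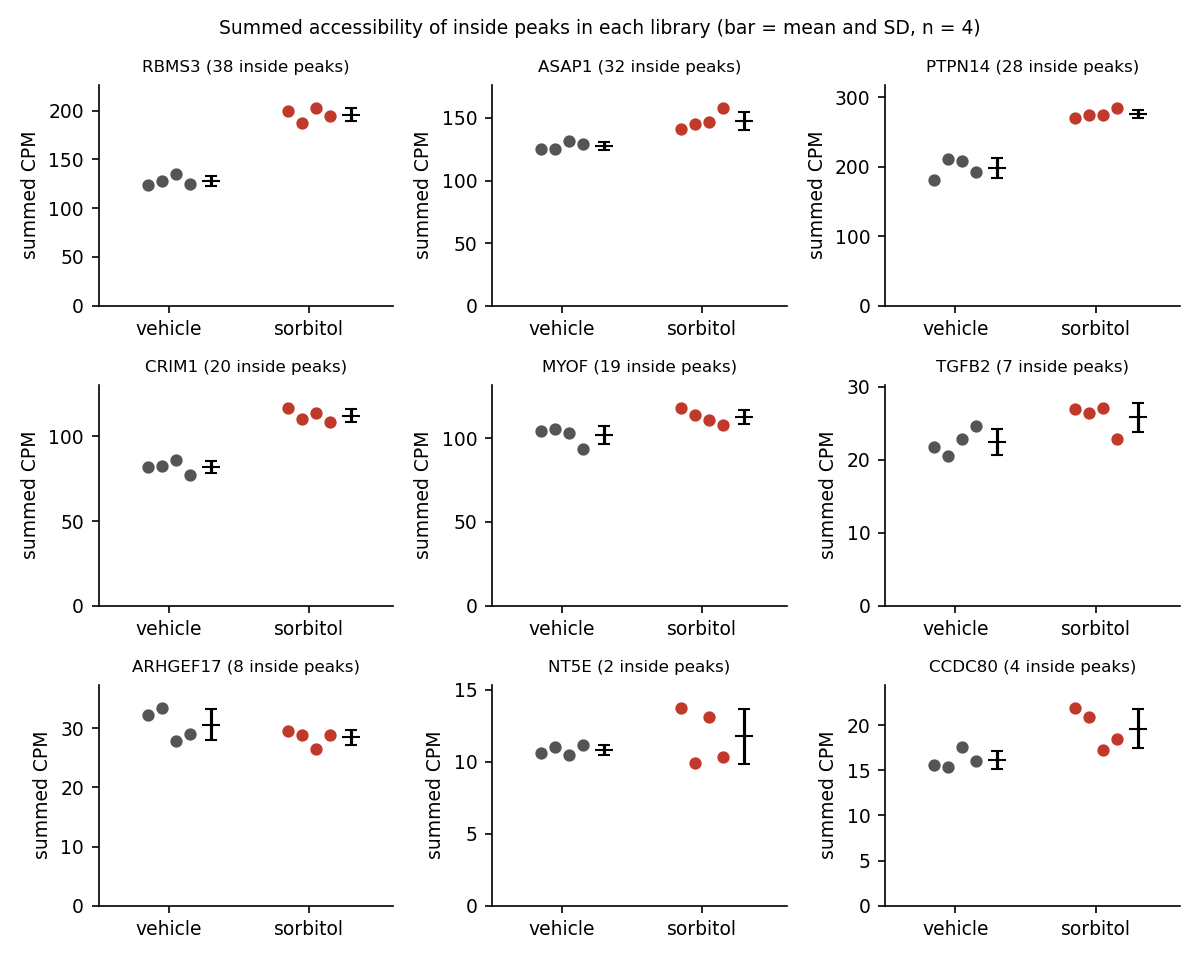
Points are the summed CPM of all inside peaks of a gene in each of the 8 libraries, with mean and SD (n = 4) beside them, and every y axis starts at 0. DOCK5 is absent because it has no inside peak. On this scale of library totals, vehicle and sorbitol are separate in RBMS3, ASAP1, PTPN14, CRIM1 and MYOF and overlap in the other 4 panels. With TMM factors MYOF overlaps and ARHGEF17 separates narrowly downward (highest sorbitol 28.45, lowest vehicle 28.53).

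Among all protein-coding genes of 0.5 to 2 times the length with at least 5 inside peaks, CRIM1 and RBMS3 stood near the top. The median log2 fold change of inside peaks was higher than that of CRIM1 (0.64) in 80 of 2010 such genes and higher than that of RBMS3 (0.59) in 20 of 487. For PTPN14 (0.43) it was 233 of 1975 genes, but the share of its peaks called higher was equalled or passed in only 52. MYOF, ASAP1 and ARHGEF17 lay in the middle or below, with higher medians in 61.9%, 49.0% and 81.2% of such genes, and TGFB2 with 27.5%. These ranks describe the genes and are not tests.

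The remaining 12 genes of the signature are mostly short, and include AMOTL2, LATS2, CCN2, CCN1, ANKRD1, AXL, F3, IGFBP3, FJX1, FOXF2, GADD45A and NUAK2. Of their 53 peaks in the same windows, 6 were higher and 6 lower (11.3% each), against 16.0% and 13.1% of all tested peaks, and the median was -0.07. Of the 6 lower peaks, 4 lay in the windows of AXL, which held 6 peaks. The 12 genes held only 15 inside peaks, of which 1 was higher and 1 lower. Among the called peaks, 3 changed by 2-fold or more. A peak within 1 kb of an end of CCN1, a secreted matrix protein and a standard YAP target, held 1.83 to 3.23 CPM in vehicle and 5.89 to 7.38 CPM in sorbitol (log2 fold change 1.283, edgeR adjusted p = 3.91e-07). A flank peak of FJX1, a secreted glycoprotein, held 5.06 to 7.49 and 10.6 to 13.8 CPM (1.00, edgeR adjusted p = 6.73e-08), and a very weak peak inside AXL, a receptor tyrosine kinase, held 0.908 to 1.58 and 0.239 to 0.694 CPM (-1.67, edgeR adjusted p = 0.00116). LATS2, the long gene among these 12, had no called peak of 8.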

How the data were processed

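The authors deposited 1 table of raw counts per peak for 129536 shared peaks in 8 Omni-ATAC-seq libraries. The submitters' processing notes name BWA 0.7.17, SAMtools 1.22, MACS2 2.2.9.1, Picard, bedtools, deepTools 3.5.4 and DESeq2, and the build GRCh38. How peaks were called and merged, and whether reads or fragments were counted, is not given in the sources used here. Peak starts begin at 0, so 1 was added to give positions counted from 1.

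Gene positions came from the RefSeq table of GRCh38.p14, and strands from its promoter table (6 of 10 genes). For the other 4 genes, the peak within 1 kb of either end stands for the start. Analysis used R 4.3.3 and edgeR 4.0.16: filterByExpr (minimum count 10, total 15, which removed 49 peaks), TMM factors, the quasi-likelihood test with treatment as the only term, and Benjamini-Hochberg adjustment over 129487 peaks. Methods were tested on simulated counts. The members, lists and tests were chosen with earlier results of these data known. Each gene's named peaks were the strongest at its start and the one of smallest p among its other peaks, plus up to 10 more past the threshold, changed at least 2-fold and without overlap between groups. Alternatives were other scalings, DESeq2 1.42.0, filters, thresholds, blocks, a background covariate, comparison sets and left-out libraries. Counts without molecular identifiers are not independent molecules. Some marker genes are not reported here.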

Additional observations from a re-analysis of the deposited data

Results flagged for a closer look

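A single library stood far from the other 3 of its group at 4 peaks, among 80 groups of 4 examined, and chance gives about 4.0. Not all of the 80 groups were at the 30 peaks named by rule. At the MYOF start peak, sorbitol 4 had 15.1 CPM against 10.9 to 11.4 in the other sorbitol libraries. It lay within the vehicle range of 12.9 to 16.4 CPM. At the PTPN14 start peak, vehicle 3 had 73.9 CPM while the remaining vehicle values were 60.04 to 62.0 CPM, and it was beyond the sorbitol range of 69.4 to 73.2 CPM. At the RBMS3 inside peak at 29805026 to 29805506 on chromosome 3, sorbitol 1 had 4.60 CPM against 3.19 to 3.38 in the other sorbitol libraries, all above the highest vehicle value of 1.90 CPM. At the CRIM1 inside peak at 36409826 to 36410101 on chromosome 2, sorbitol 3 had 2.51 CPM against 3.47 to 3.504, again above the highest vehicle value of 1.61 CPM.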

How the results depend on the processing

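The 66 called peaks (59 higher, 7 lower) became 24 (23 and 1) with TMM factors from contig peaks, 34 (33 and 1) when only peaks averaging 50 counts or more were tested (80 of the 178), and 40 (38 and 2) at the stricter threshold of 0.01. The count of higher inside peaks, 56, became 23, 32 and 37 in the same order, and 49 (46 of them among the 56) with the loess offset. The count minimum tests fewer peaks and takes its TMM factors from those peaks alone, and 0.01 is a stricter threshold. With the count minimum, the DOCK5 gene-end peak moved from -0.24 to -0.15. The CRIM1 peak at 36403593 to 36404303 moved from 0.83 to 0.92. Of the 32 higher inside peaks in that run, 26 were among the 56. With contig factors, the cause was not tested. Lower peaks numbered 2 with library totals alone, 1 with the loess offset, 1 with gene-end factors, 4 with DESeq2 and 2 to 8 when single libraries were left out; the cause was not tested. The median over the 178 peaks, 0.26, became 0.34 with library totals, 0.44 with gene-end factors, 0.22 with contig factors and 0.20 with the count minimum. The median of inside peaks, 0.33, became 0.41, 0.50 and 0.27 with library totals, gene-end factors and contig factors. Gene-end factors moved the median of all peaks from 0.01 to 0.19, and relative to that median inside peaks stood at 0.32 in both fits. Over all peaks 20699 were higher and 17016 lower, or 26160 and 12651 with library totals and 34033 and 8671 with gene-end factors. With contig factors calls over all peaks also fell, to 9119 higher and 5233 lower, and inside peaks stood 0.31 above the median of all peaks. With the count minimum 10827 were higher and 10558 lower, of 58274 tested. The difference from comparison peaks, 14.7 points, became 5.01 with contig factors and 23.8 with the count minimum. It was 10.6 to 16.1 when single libraries were left out, 8.63 to 21.0 when single genes were left out, and 15.8 without peaks at any RefSeq gene end. CPM was also summed over all peaks of a gene, with its end and flanks, and not over inside peaks alone. Log2 ratios of these sums with TMM factors were 0.0232 (MYOF), 0.261 (CRIM1) and 0.397 (RBMS3), against 0.106, 0.343 and 0.479, by the construction of the scaling.

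Of 22 called peaks chosen by rule, 14 kept their direction and call under each alternative run for them. All 14 had been chosen for their small p in the same contrast, and no called gene-end peak was among them. None of the 22 changed sign. Uncalled peaks near 0 did. The ASAP1 gene-end peak had -0.0349 without vehicle 4 and sorbitol 4, and -0.019 to 0.1052 when single libraries were left out, negative without sorbitol 4. The CRIM1 gene-end peak had -0.0268 with contig factors, -0.0269 without vehicle 4 and sorbitol 4, and -0.0205 to 0.0509 when single libraries were left out, negative without vehicle 1, sorbitol 2 or sorbitol 4. The CCDC80 start peak had 0.0285 with the loess offset and 0.0323 with gene-end factors, and the NT5E flank peak had -0.0167 to 0.1863 when single libraries were left out, negative without vehicle 4. In each case the cause was not tested. The replicate numbers did not pair libraries (correlations of same-numbered deviations -0.133 to 0.00671). With the replicate block 61 peaks were called, 56 higher and 5 lower, with 53 higher inside peaks, a difference of 14.5 points and medians of 0.27 and 0.33. Leaving out vehicle 4 and sorbitol 4, an alternative chosen after seeing the data, gave 49 higher and 9 lower peaks. The weakest inside peak had a mean of only 13.1 counts, so small changes at such peaks were not detectable at this depth.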

Other observations

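Genes of the Hippo pathway itself held 173 peaks in the same windows over 15 genes, of which 23 were higher (13.3%) and 22 lower (12.7%), against 16.0% and 13.1% of all tested peaks. Of their 135 inside peaks 21 were higher (15.6%) and 9 lower (6.67%), against 18.6% and 9.72% of other peaks inside protein-coding genes, and the median was -0.05 on the log2 scale. The co-activator genes YAP1 and WWTR1 (TAZ) had 4 of 12 and 4 of 18 inside peaks higher and none lower, and TEAD1 had 5 of 29. Both inside peaks of TEAD3 were higher, with a median of 1.202. With gene-end and flank peaks, TEAD3 had 3 higher and 1 lower of 5 peaks. TEAD2 and TEAD4 had 3 lower of 6 peaks and 3 lower of 7 peaks and none higher, counted with gene-end and flank peaks. The single inside peak of TEAD2 was lower at -1.26. TEAD4 had 1 lower and none higher of 4 inside peaks, with an inside median of 0.07. VGLL4, a TEAD-binding cofactor, had 2 higher and 2 lower of 14 inside peaks and an inside median of -0.26. STK3, a Hippo kinase gene of 598.6 kb, had no higher peak and 2 lower peaks among 21 inside it, although RBMS3, of similar length, had 21 higher of 38. NF2, an upstream regulator, had 3 lower of 11 inside peaks, or 5 lower of 15 with gene-end and flank peaks, and none higher. At gene ends of the 15 genes, 8 of 19 peaks were lower (42.1%) and 1 higher (5.26%), against 32.8% and 8.75% of all gene-end peaks. These are values from the same test over all peaks, and no difference between these genes was tested.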
